A study of Homo sapiens with 12 samples.

Results

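Of the 11548 genes in the expression table, 6 were taken by name for the p53 and RB tumour suppressor axis, and all 6 were present: MDM2, MDM4, RB1, RBL1, RBL2 and E2F1. They were measured by RNA sequencing in 12 libraries of 3 hepatocellular carcinoma cell lines, Hep3B, MHCC97H and Huh7. Each line, labelled wild type, was left untreated, given the mTOR inhibitor AZD8055, given compound #57, an inhibitor of the phosphatase SHP2, or given both. AZD8055 was used at 100 nM and compound #57 at 5 µM in the combination, and the dose of compound #57 alone in the sequenced cells is not given in the sources used here. MHCC97H was exposed for 24 h and Hep3B and Huh7 for 48 h, so exposure time and this line cannot be told apart. Each line and treatment had 1 library. The lines therefore served as the repeats of a treatment, and the differently treated libraries of a line as the repeats of that line. Every p-value measures the spread between these libraries only. Hep3B is known for its lack of p53, which made it the line to set against the others for genes that p53 controls.

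p53 is a transcription factor that is held at a low level by MDM2, an E3 ubiquitin ligase that p53 itself induces, and is restrained in its activity by MDM4, a relative of MDM2. RB1 and its relatives RBL1 (p107) and RBL2 (p130), together the pocket proteins, bind E2F transcription factors and hold cell cycle genes silent until cyclin-dependent kinases phosphorylate them. E2F1 is an activating E2F whose own gene is an E2F target, as is RBL1, and MDM2, E2F1 and RBL1 are therefore read as targets as well as regulators. Loss of either axis is common in hepatocellular carcinoma.

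The 12 libraries held 10667343 to 15968317 reads, of which 98.56% to 99.19% fell on genes of the table. Levels are given as scaled reads, the reads of a gene per 10000000 reads of its library. Libraries of 1 line correlated with each other at 0.908 to 0.985 across genes, and libraries of different lines at 0.512 to 0.815. Of 13 hepatocyte markers, all stood at 10 or more scaled reads in every Hep3B and Huh7 library, while in MHCC97H APOA1 and TTR fell below that level. The summed markers reached 53550 to 62413 in MHCC97H, most of it the keratins KRT8 (35591 to 42711, higher than in the other lines) and KRT18, against 258285 to 646990 in the other lines. ALB stood at 142 to 732 in MHCC97H and at 23874 or more in the others, and SERPINA1 at 10.5 to 16.9 against 19700 or more. The 5 markers of other cell types in the table summed to 4908 to 11801 in Hep3B, 2283 to 3450 in MHCC97H and 2713 to 5073 in Huh7. Among them the endothelial PECAM1 was higher in MHCC97H (285 to 541, at most 55.7 in the others), and EPCAM (3.5 to 9.1), COL1A1 (10 to 23.4) and COL1A2 (0 to 1.4) were lower there than in the others, with KRT19 overlapping. With the combination across the lines 3 of 13 hepatocyte markers were called higher and 2 lower, and 1 of the 5 others higher. Over all genes 20.9% were called higher and 15.1% lower, close to the shares of the hepatocyte markers. The part of these marker differences in the results below was not tested. In bulk RNA, fewer cells with a transcript and less of it per cell cannot be told apart.

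The promoters of E2F1, RBL1 and MDM2 are shown because they carry binding words of E2F or p53, whose targets these genes are. Each stretch has 150 bases and reads 5′ to 3′ on the strand of its gene, from RefSeq on GRCh38.p14. Capitals mark E2F words in the first pair and p53 response elements in MDM2.
E2F1, chr20:33686386-33686535, minus strand: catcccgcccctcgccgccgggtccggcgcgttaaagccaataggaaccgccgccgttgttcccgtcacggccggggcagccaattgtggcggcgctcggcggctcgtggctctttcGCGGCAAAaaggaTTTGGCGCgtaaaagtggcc
RBL1, chr20:37095998-37096147, minus strand: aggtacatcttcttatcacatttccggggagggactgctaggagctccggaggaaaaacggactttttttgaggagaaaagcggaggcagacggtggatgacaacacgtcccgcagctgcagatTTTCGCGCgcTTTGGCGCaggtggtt
MDM2, chr12:68808852-68809001, plus strand: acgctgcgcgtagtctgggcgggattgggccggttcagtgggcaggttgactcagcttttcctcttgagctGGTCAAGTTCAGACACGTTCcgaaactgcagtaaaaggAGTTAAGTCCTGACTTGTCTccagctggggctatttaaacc

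The E2F words searched were TTTGGCGC, TTTGCCGC, TTTCGCGC and TTTCCCGC on both strands, in windows of 250 bases before to 50 after each start. E2F1 held TTTGCCGC on the opposite strand at -33 to -26 from its start and TTTGGCGC at -20 to -13, and RBL1 held TTTCGCGC at -26 to -19 and TTTGGCGC at -16 to -9. Such a word was found in 3.31% of 35116 RefSeq windows. By gene, 3.99% of 27305 genes had one in any window, against 18 of the 30 listed E2F targets with a window, E2F1 and RBL1 among them. The MDM2 stretch lies before its second, internal promoter, which is known as the p53-responsive one. It held 2 p53 response elements without spacer, matching at 18 and 17 of 20 bases, at -94 to -75 and -56 to -37 from the more upstream of its RefSeq starts, which lies downstream of the end of the printed stretch, and 5.2% of windows held a match of at least 17 bases. No E2F word overlapped a p53 element in these stretches. The first MDM2 promoter held an E2F word in both of its entries. No E2F word was found in the windows of MDM4 and RBL2, nor in that of RB1, whose entry lies at an internal start and held a p53 element match of 17 bases at -96 to -77. The short word TTTGAA, the cell cycle homology region, was in windows of MDM4 and RBL2 and in 15.16% of all windows. A match is a description of the letters and no proof of binding.

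MDM2 (chr12:68808177-68845544, GENCODE v44 on GRCh38) stood at 625 scaled reads or more in every library, and was the 1 member called lower under the combination across the lines. In Hep3B it stood at 1172 scaled reads untreated, 789 with AZD8055, 753 with compound #57 and 672 with both. In Huh7 the same order of treatments gave 1149, 988, 765 and 639. In MHCC97H it gave 707, 670, 813 and 625. The untreated library was the highest in Hep3B and Huh7, the combination library was the lowest in each of the 3 lines, and the untreated MHCC97H library lay below every untreated or AZD8055-treated library of the others.

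**Figure D1:**
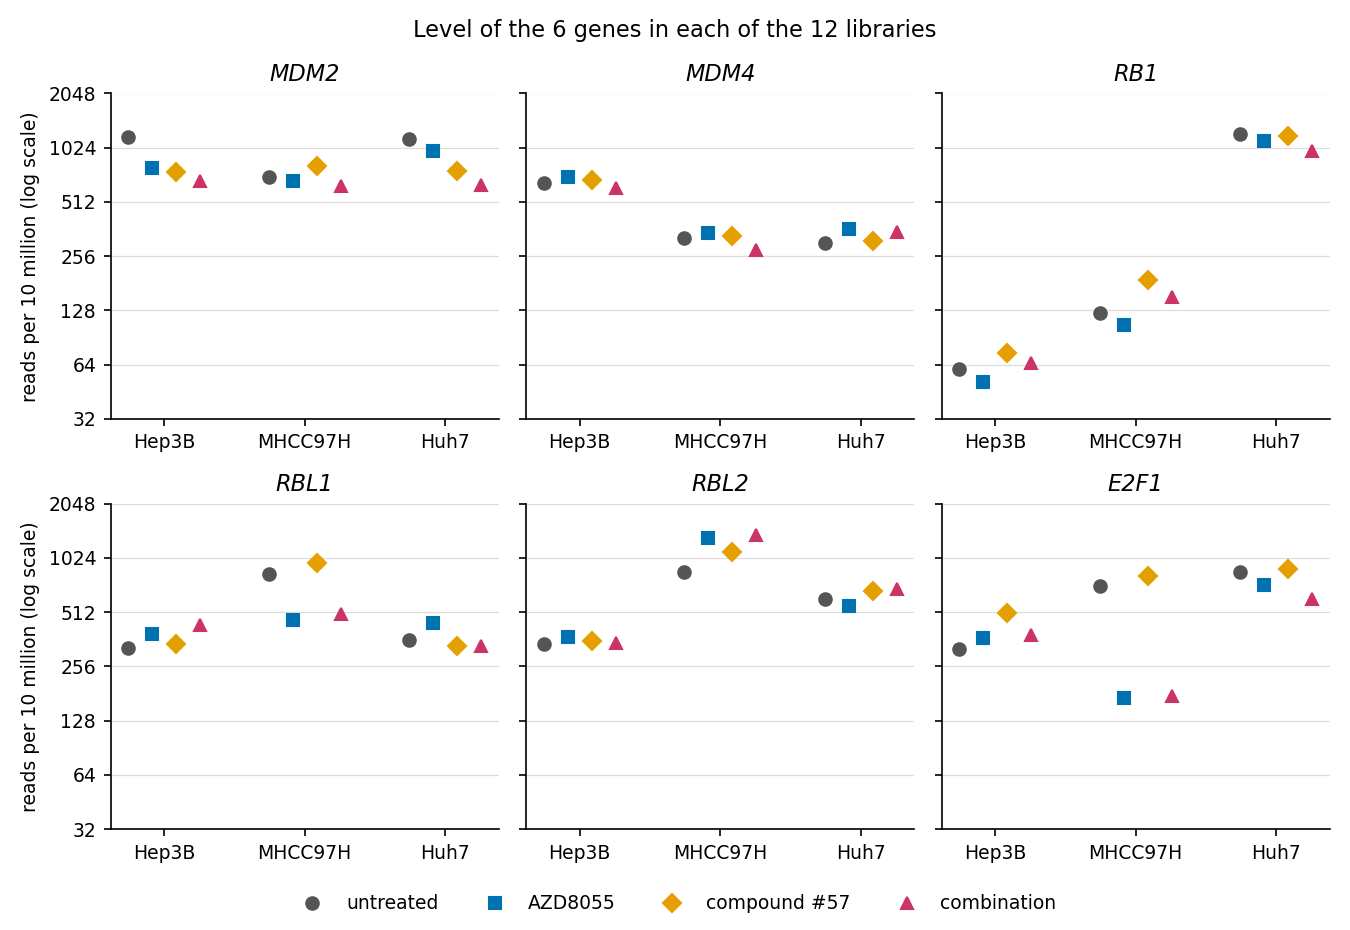
Level of each member in the 12 libraries, in scaled reads (per 10000000 library reads) on a log scale, by cell line, with 1 point a library and the treatment given by colour and shape. RB1 separates Huh7 (980 to 1214) from MHCC97H (107 to 190) and Hep3B (51.5 to 74.2), and E2F1 in MHCC97H falls to 172 and 176 in the libraries that held AZD8055.

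Across the lines the combination lowered MDM2 by a log2 difference of -0.61 (SE 0.17, limma adjusted p = 0.0217), or 0.66 times the untreated level, and it was lower in 3 of 3 lines. It was 1 of 6 members called, beside 36.0% of all genes. Within a line, the read ratio of combination to untreated was 0.574 in Hep3B (95% Clopper-Pearson interval on the log2 scale -0.93 to -0.67), 0.556 in Huh7 (-0.97 to -0.72) and 0.884 in MHCC97H (-0.32 to -0.04). These intervals cover counting error only, and none of the 3 included 0. Without Hep3B the difference was -0.51 (adjusted p = 0.151), and without Huh7 it was -0.49 (adjusted p = 0.188). The call was lost without either, where calls over all 11548 genes fell from 4154 to 1797 and to 11.

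AZD8055 alone gave MDM2 a log2 difference of -0.29 (SE 0.17, adjusted p = 0.294) and compound #57 alone -0.34 (SE 0.17, adjusted p = 0.273), neither of which passed the threshold of 0.05. With AZD8055 no member was called by limma, none had an unadjusted p under 0.05 and none was called with voom weights on the reads, beside 2.96% of all genes called. Compound #57 called 0 members by the same 3 counts, beside 0.00866% of all genes. Adding compound #57 to AZD8055 called 0 members by all 3 counts and 0% of genes, and the combination against the sum of both drugs likewise called 0 members and 0% of genes. Adding AZD8055 to compound #57 called 0 members by limma and 0 by voom, 1 at an unadjusted p under 0.05 (E2F1, -1.06, SE 0.42), beside 4.18% of all genes.

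A second fit took each drug as present or absent within a line, which gave each effect from 2 pairs of libraries. Here MDM2 was lower with compound #57 in Huh7 (log2 effect -0.61, SE 0.13, adjusted p = 0.0320) and in Hep3B (-0.43, SE 0.13, adjusted p = 0.0423). It was the 1 member called in each line, beside 8.82% of genes called in Huh7 and 28.9% in Hep3B. In MHCC97H the MDM2 value was 0.05 (SE 0.13, adjusted p = 0.893). The difference from Huh7 was 0.66 (SE 0.19, adjusted p = 0.15) and from Hep3B 0.49 (SE 0.19, adjusted p = 0.158), neither of which passed the test. Of the 13 hepatocyte markers, 6 were called higher and 1 lower with compound #57 in Hep3B, 2 higher in Huh7 and 5 higher in MHCC97H. Of the 5 other cell type markers, 2 were called higher in Hep3B, 1 in Huh7 and 0 in MHCC97H. Over all genes 15.6%, 5.39% and 2.75% were called higher in Hep3B, Huh7 and MHCC97H. The part of either marker list in the MDM2 values was not tested. Both MDM2 calls lay close to the threshold. The Huh7 call was lost without any 1 of the MHCC97H or Huh7 libraries (-0.63 to -0.59, adjusted p up to 0.190). The Hep3B call was lost without any MHCC97H or Huh7 library, at an unchanged -0.43 (adjusted p from 0.0587 to 0.0625), and without the untreated or the compound #57 library of Hep3B, at -0.23 (adjusted p = 0.382 and 0.380).

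Hep3B, the line without p53, shared the lower MDM2 level with compound #57 in the full fit. The part of p53 in the MDM2 values was not tested. The untreated level of MDM2 in Hep3B (1172) was 1.02 times that in Huh7 (1149), with an interval of -0.08 to 0.13 on the log2 scale. Across treatments Hep3B and Huh7 differed in MDM2 by -0.06 (SE 0.15, adjusted p = 0.750).

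MDM4 (chr1:204516379-204558120) separated Hep3B from the other lines and moved little with treatment. Hep3B held 651, 701, 682 and 615 scaled reads (untreated, AZD8055, compound #57, combination), MHCC97H 323, 343, 333 and 278, and Huh7 305, 361, 312 and 349. Every Hep3B library lay above every library of the other lines, which overlapped with each other. Hep3B exceeded Huh7 by 0.996 (SE 0.10, adjusted p = 3.31e-05) and MHCC97H by 1.05 (SE 0.10, adjusted p = 9.26e-06) on the log2 scale, 1.99 and 2.07 times. MHCC97H and Huh7 differed by -0.06 (SE 0.10, adjusted p = 0.636). Against untreated, MDM4 differed by 0.15 with AZD8055 (95% interval -0.12 to 0.41), by 0.05 with compound #57 (-0.21 to 0.31) and by -0.03 with the combination (-0.30 to 0.23). Per kb of the MANE Select transcript, MDM2 was 1.47 to 2.42 times as abundant as MDM4 in Hep3B, 2.62 to 3.27 times in MHCC97H and 2.46 to 5.06 times in Huh7. The ratio was highest in untreated Huh7 (5.06) and lowest in Hep3B with the combination (1.47).

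RB1 (chr13:48303744-48599436) showed the widest separation of lines among the members. Hep3B held 60.9, 51.5, 74.2 and 65.6 scaled reads, on 63 to 116 reads a library. MHCC97H held 124, 107, 190 and 152, and Huh7 1214, 1121, 1196 and 980. The 3 lines did not overlap. RB1 was lower in Hep3B than in Huh7 (log2 difference -4.15, SE 0.15, adjusted p = 2.36e-08), at 0.06 times. MHCC97H was lower than Huh7 (-3.00, SE 0.15, adjusted p = 5.45e-08), and Hep3B was lower than MHCC97H (-1.15, SE 0.15, adjusted p = 6.50e-05). RB1 kept these 3 calls under every alternative that gave a test. Compound #57 gave RB1 a change of 0.56 in MHCC97H (SE 0.13, 95% interval 0.25 to 0.86, adjusted p = 0.0660), short of the threshold. That effect called 0 members in MHCC97H by limma and 0 by voom, 1 at an unadjusted p under 0.05, beside 3.48% of genes. The read ratio of compound #57 to untreated for RB1 was 1.52 in MHCC97H (log2 interval 0.31 to 0.91), 1.22 in Hep3B (-0.17 to 0.75) and 0.985 in Huh7 (-0.12 to 0.08).

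RBL1 (chr20:36996349-37095997, minus strand) stood at 323, 388, 343 and 436 scaled reads in Hep3B and at 357, 449, 333 and 334 in Huh7. In MHCC97H it stood at 839 untreated, 467 with AZD8055, 962 with compound #57 and 503 with both. Hep3B and Huh7 overlapped, while every MHCC97H library lay above theirs, the 2 with AZD8055 by a small margin and the 2 without it far above. RBL1 was higher in MHCC97H than in Huh7 by 0.85 (SE 0.24, adjusted p = 0.00887) and lower in Hep3B than in MHCC97H (-0.83, SE 0.24, adjusted p = 0.0106), while Hep3B and Huh7 differed by 0.02 (SE 0.24, adjusted p = 0.953). Without the compound #57 libraries the first fell to 0.63 (adjusted p = 0.0579) and the second to -0.62 (adjusted p = 0.0633), and without the untreated libraries the second was -0.65 (adjusted p = 0.0716). In the untreated libraries alone the first was 1.23 (counting interval 1.09 to 1.38) and the second -1.37 (-1.55 to -1.20).

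RBL2 (chr16:53433977-53491648), the pocket protein of quiescent cells, ordered the lines the same way in all 4 treatments, with MHCC97H the highest and Hep3B the lowest. Hep3B held 339, 372, 355 and 343 scaled reads, Huh7 604, 556, 673 and 686, and MHCC97H 851, 1329, 1100 and 1381, without overlap. MHCC97H exceeded Huh7 by 0.87 (SE 0.13, adjusted p = 0.000229), and by 0.49 in the untreated libraries alone (counting interval 0.37 to 0.62). Hep3B was lower than Huh7 (-0.83, SE 0.13, adjusted p = 0.000563) and lower than MHCC97H (-1.70, SE 0.13, adjusted p = 2.20e-06). In MHCC97H the untreated library was the lowest, and both libraries with AZD8055 were the highest.

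Set per kb of transcript, the make-up of the pocket protein family set Huh7 apart, while Hep3B and MHCC97H were alike in the libraries without AZD8055. In Huh7, RB1 made up 50.7% to 57.6% of the family's reads per kb, against 6.9% to 10.5% in Hep3B and 5.9% to 9.1% in MHCC97H. In Hep3B, RBL1 (40.5% to 47.5%) and RBL2 (43.9% to 50.1%) made up the rest. In MHCC97H the share of RBL1 was 42.3% untreated and 38.8% with compound #57, but 21.7% with AZD8055 and 21.8% with both, where RBL2 rose to 72.4% and 70.3%. The family's sum was lowest in Hep3B, at 140 to 161 scaled reads per kb, and lay between 349 and 448 in the other lines.

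**Figure D2:**
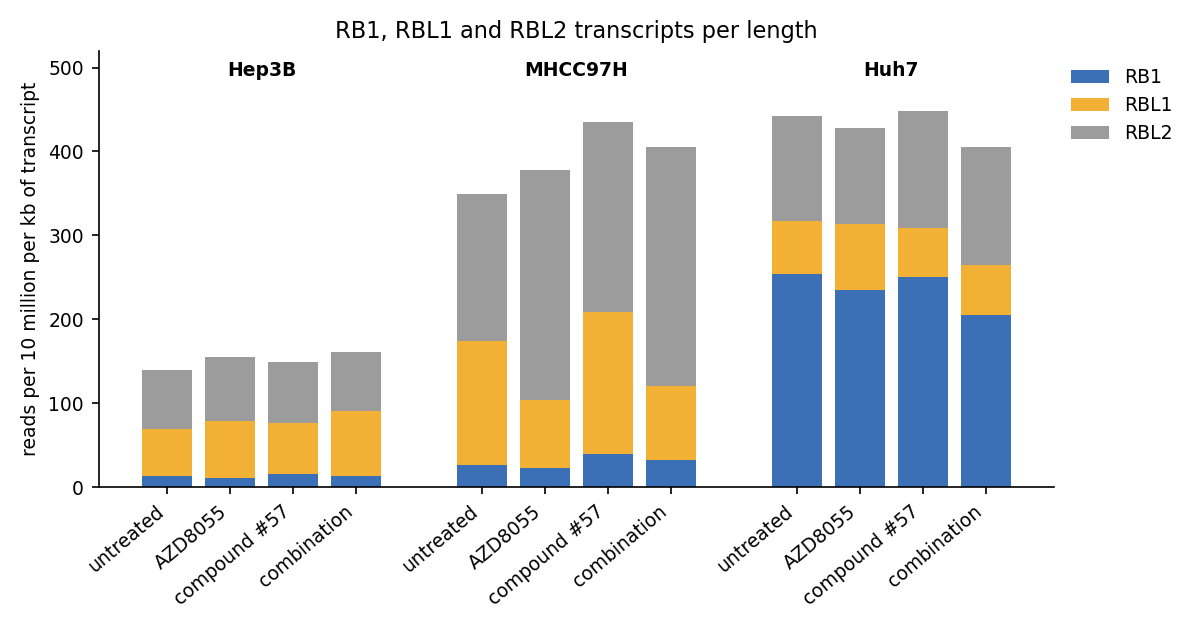
Stacked bars of RB1, RBL1 and RBL2 in the 12 libraries, in scaled reads per kb of the MANE Select transcript, grouped by cell line. RB1 takes more than any other colour in Huh7 (50.7% to 57.6%), and in MHCC97H the RBL1 part shrinks to 21.7% and 21.8% of the bar with AZD8055 and with the combination.

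E2F1 (chr20:33675477-33686385, minus strand) carried the largest treatment response of the members. In MHCC97H it stood at 713 scaled reads untreated, 172 with AZD8055, 818 with compound #57 and 176 with both. In Huh7 it stood at 857, 721, 888 and 604, and in Hep3B at 322, 370, 505 and 381. The 2 MHCC97H libraries with AZD8055 were the lowest of all 12, and the 2 without it lay within the range of Huh7. In Huh7 the libraries with AZD8055 were also the lower pair, and in Hep3B the untreated library was the lowest.

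E2F1 fell with AZD8055 in MHCC97H (log2 effect -2.13, SE 0.16, adjusted p = 0.000417), to 0.23 times. RBL1 fell with it (-0.89, SE 0.12, adjusted p = 0.00207) and RBL2 rose (0.48, SE 0.12, adjusted p = 0.0202). These were 3 of 6 members called, beside 30.7% of all genes. Of the hepatocyte markers 1 of 13 was called higher and 2 lower by the same effect, and of the other cell type markers 2 of 5 higher. Their part was not tested. The E2F1 and RBL1 calls held without each library in turn, whereas the RBL2 call was lost without the untreated or the AZD8055 library of MHCC97H (0.33, adjusted p = 0.317 and 0.318) or without its compound #57 or combination library (0.64, adjusted p = 0.0704 and 0.0708). Within MHCC97H the E2F1 read ratio was 0.241 for AZD8055 to untreated (log2 interval -2.26 to -1.85) and 0.216 for the combination to compound #57 (-2.43 to -2.00). The combination against AZD8055 gave 1.03 (-0.23 to 0.31), where a change was not detectable at this depth.

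In Hep3B and Huh7 no member was called for AZD8055 by limma or by voom, beside 6.60% and 25.0% of genes. With AZD8055 4 of 13 hepatocyte markers were called lower in Hep3B, with 1 of the 5 other markers higher. In Huh7 1 hepatocyte marker was higher and 2 lower, with 3 of the 5 other markers higher and 1 lower. In Hep3B, MDM2 (-0.37) and RBL1 (0.30) had an unadjusted p under 0.05, and in Huh7 E2F1 did (-0.40). The effect on E2F1 was more negative in MHCC97H than in Hep3B by -2.02 (SE 0.23, adjusted p = 0.0145) and than in Huh7 by -1.72 (SE 0.23, adjusted p = 0.0116). For RBL1 the differences were -1.19 (SE 0.17, adjusted p = 0.0177) and -1.06 (SE 0.17, adjusted p = 0.0196). These 2 members were called of 6 in each comparison, beside 4.64% and 6.36% of all genes. Hep3B against Huh7 called 0 members, with 0 at an unadjusted p under 0.05 and 0 by voom, beside 0.0693% of genes. For RBL2 the differences were 0.44 from Hep3B (adjusted p = 0.169) and 0.53 from Huh7 (adjusted p = 0.107). Leaving out any MHCC97H library, or the compound #57 or combination library of Hep3B, kept the E2F1 difference from Hep3B between -2.33 and -1.94, with adjusted p from 0.0566 to 0.0782. Leaving out any MHCC97H library, or the untreated or AZD8055 library of Huh7, kept its difference from Huh7 between -1.81 and -1.57, with adjusted p from 0.0579 to 0.0749. The same libraries took RBL1 to -1.24 to -1.15 against Hep3B (adjusted p from 0.0812 to 0.114) and to -1.10 to -0.90 against Huh7 (0.0933 to 0.116). Those fits had 2 residual degrees of freedom in place of 3.

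**Figure D3:**
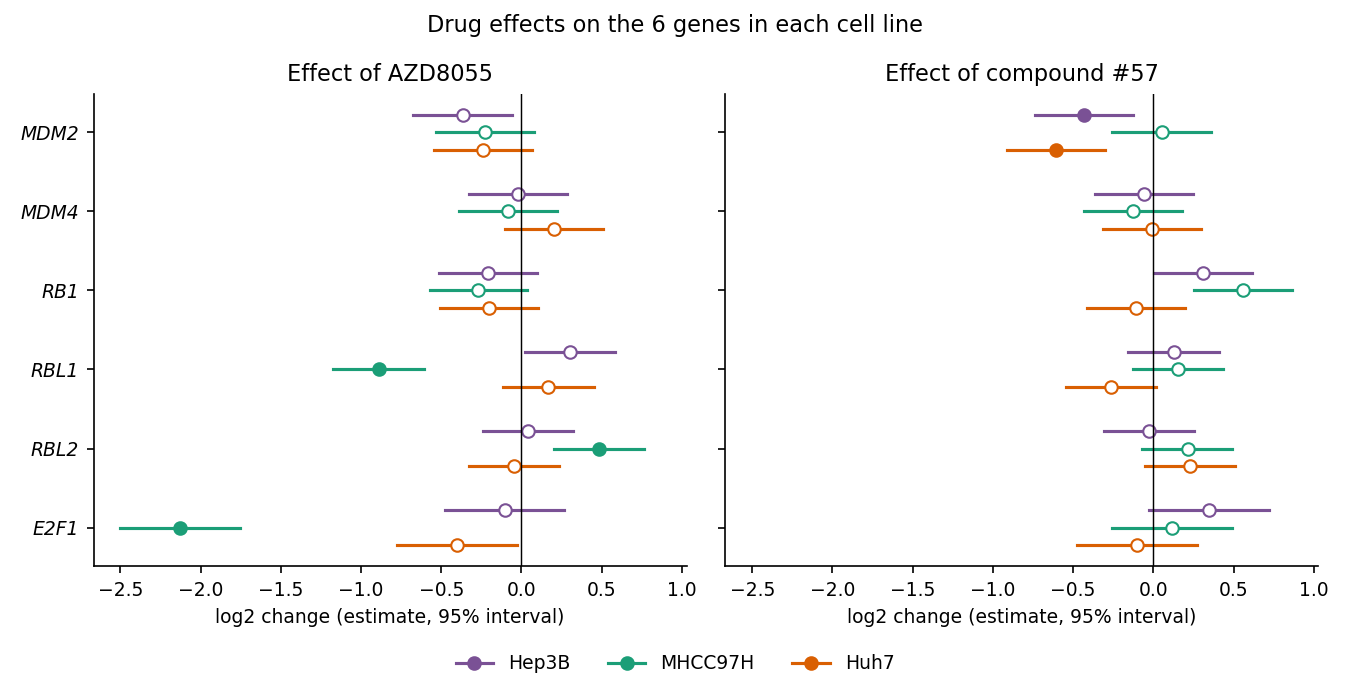
Effect of AZD8055 (left) and of compound #57 (right) on each member in each line, as log2 estimates with 95% intervals from the fit with both drugs as terms; filled points passed an adjusted p of 0.05. E2F1 (-2.13) and RBL1 (-0.89) stand apart under AZD8055 in MHCC97H, and MDM2 is the 1 member with filled points under compound #57, in Hep3B (-0.43) and Huh7 (-0.61).

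For compound #57 no member passed the test of a difference between lines. MHCC97H against Hep3B, MHCC97H against Huh7 and Hep3B against Huh7 called 0 members by limma and 0 by voom, beside 7.54%, 0.883% and 0.927% of genes. At an unadjusted p under 0.05 the first had 1 member, MDM2, the second had 3, RB1, RBL1 and MDM2, and the last had 0. E2F1 with compound #57 in Hep3B gave 0.35 (SE 0.16, adjusted p = 0.145), from a read ratio of 1.57 for compound #57 to untreated and 1.03 for the combination to AZD8055.

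Between lines, each pair called 4 of 6 members: Hep3B against Huh7 (RB1, MDM4, RBL2 and E2F1), MHCC97H against Huh7 (RB1, RBL1, RBL2 and E2F1) and Hep3B against MHCC97H (RB1, MDM4, RBL1 and RBL2). The shares over all genes were 55.1%, 70.2% and 67.8%, close to those of the members. MDM2 passed in none of the 3, but without the compound #57 libraries it was called lower in MHCC97H than in Huh7 (-0.43, adjusted p = 0.0454). The E2F1 differences from Huh7 were -0.96 for Hep3B (SE 0.37, adjusted p = 0.0470) and -1.05 for MHCC97H (SE 0.37, adjusted p = 0.0256). The Hep3B call was lost without any 1 treatment (-1.06 to -0.81, adjusted p from 0.0595 to 0.103). The MHCC97H call was lost without the AZD8055 libraries (-0.72, adjusted p = 0.131) or the combination libraries (-0.82, adjusted p = 0.108). In the untreated libraries alone E2F1 in MHCC97H was 0.833 times that in Huh7 (log2 interval -0.39 to -0.14), and in Hep3B it was 0.375 times (-1.59 to -1.24).

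The other genes of both axes were taken from lists that partly hold members and were chosen with earlier results of these data known. Counts on these lists are therefore descriptions and no independent support. The E2F target list of 35 genes, with E2F1 and RBL1 among them, fell with AZD8055 in MHCC97H, where 35 of 35 were called lower, beside 14.8% of all genes, with a median of -1.42 against 0.04 over all genes. The falls included CDC25A, a phosphatase that activates cyclin-dependent kinases (-2.60, SE 0.16), CDC6, a loader of replication origins (-2.51, SE 0.18), and MYBL2, the B-MYB subunit that replaces pocket proteins on MuvB (-2.08, SE 0.17). In Huh7, 16 of 35 were called lower, beside 12.6% of genes, with a median of -0.47, and in Hep3B none was called by limma, 14 had an unadjusted p under 0.05 and 1 was called by voom, with a median of -0.24, beside 2.41% of genes called lower. The fall in MHCC97H was larger than in Hep3B for 28 of 35, beside 2.30% of genes, and larger than in Huh7 for 23 of 35, beside 2.76%. The count in MHCC97H was 29 to 35 under every alternative. The 28 fell to between 1 and 4 without any 1 MHCC97H library, to 0 without the compound #57 or the combination library of Hep3B, and to 17 and 18 without its untreated and AZD8055 libraries. The 23 fell to 0 or 1 without any 1 MHCC97H library, to 0 without the untreated or the AZD8055 library of Huh7, and to 15 without its compound #57 or combination library. The 16 in Huh7 fell to 10 without its untreated or AZD8055 library and to 2 without its compound #57 or combination library.

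With compound #57, 12 of 35 E2F targets were called lower in Hep3B, beside 13.3% of all genes, with a median of -0.26, and in Huh7 7 of 35, beside 3.43%, with a median of -0.41 and 34 of 35 below 0. In MHCC97H none was called by limma or voom, beside 3.48% of all genes called and 0.736% called lower. There 0 had an unadjusted p under 0.05 and 23 of 35 lay above 0, with a median of 0.12. The test of the difference called 3 of 35 for MHCC97H against Hep3B, beside 7.54% of genes. For MHCC97H against Huh7 it called 0 (19 at an unadjusted p under 0.05, 0 by voom), beside 0.883% of genes. The 12 fell to 4 or 5 without any 1 Hep3B library, and the 7 to 3 without any 1 MHCC97H library and to 0 without any 1 Huh7 library.

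With the combination across the lines, 22 of 35 E2F targets were called lower, beside 15.1% of all genes, and 0 higher, with a median of -0.92 against 0.09. CDC25A (-1.94, SE 0.42), CDC6 (-1.92, SE 0.41) and ORC1, a subunit of the origin recognition complex (-1.56, SE 0.31), were the 3 whose smallest change over the lines was the largest. Their adjusted p were 0.00846, 0.00814 and 0.00618. E2F1 (-0.76, SE 0.42, adjusted p = 0.182) and RBL1 (-0.14, SE 0.28, adjusted p = 0.722) were not among the called. The 22 fell to 11 without Hep3B, where calls over all 11548 genes fell from 4154 to 1797. Without Huh7 they fell to 0, where 11 of all genes were called. Without MHCC97H 22 were called lower and 1 higher, where 3778 of all genes were called.

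**Figure D4:**
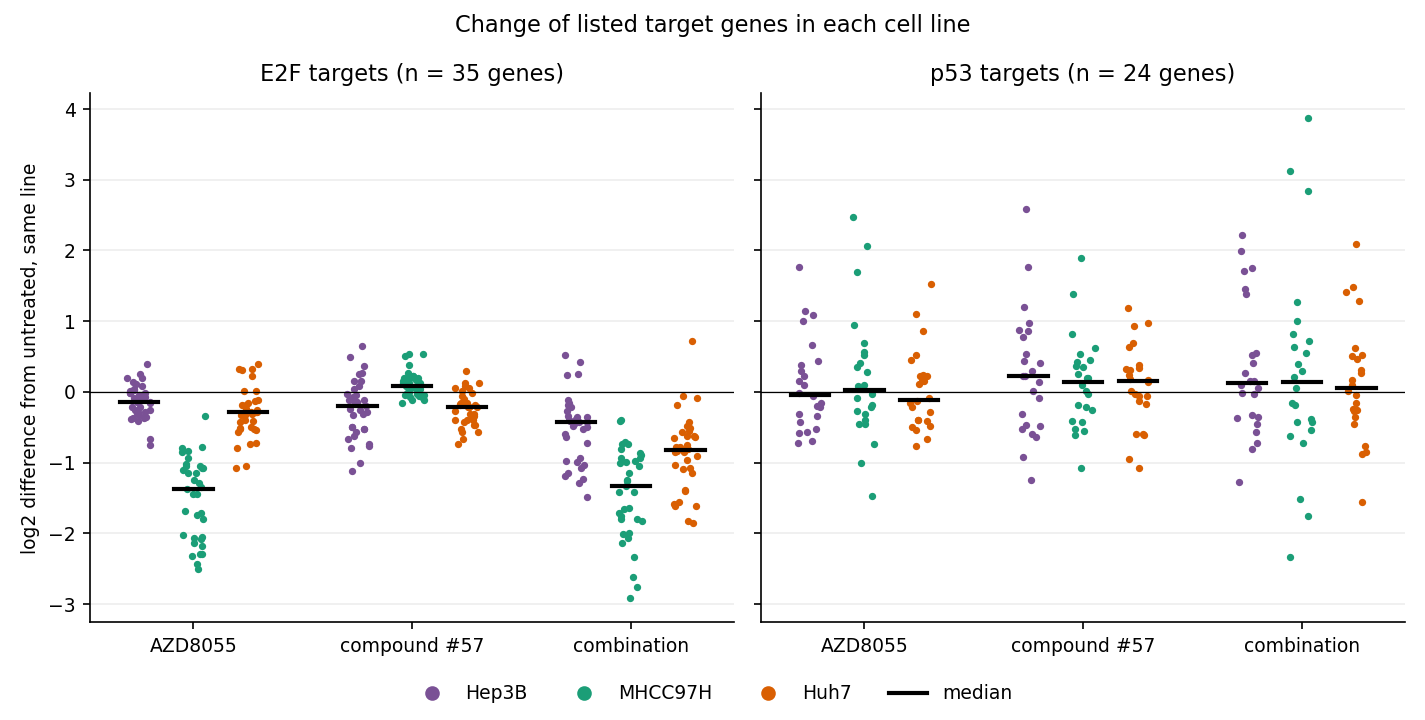
Log2 difference from the untreated library of the same line for 35 E2F targets (left) and 24 p53 targets (right), 1 point a gene, coloured by line, with the median as a black bar. Every E2F target lies below 0 in MHCC97H with AZD8055 (median -1.37) and with the combination (median -1.33), while the medians of the p53 targets stay between -0.11 and 0.23.

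Among E2F proteins and partners, 6 of 10 were called with the combination, 5 lower, beside 36.0% of all genes called and 15.1% called lower. They included TFDP1, the DP partner of E2F (-0.98, SE 0.17, adjusted p = 0.00406), the repressor E2F8 (-1.32, SE 0.43, adjusted p = 0.0383) and TFDP2 (0.96), the 1 called higher. TFDP1 was also lower with AZD8055 across the lines (-0.77, SE 0.17, adjusted p = 0.0452), beside 2.96% of all genes called. Of the 5 MuvB genes in the table, 1 was called lower with the combination, LIN52 (-0.60), beside the same 15.1%, and MYBL2 gave -0.96 (adjusted p = 0.0818). Among 15 kinases, cyclins and inhibitors acting on RB, 1 was called higher and 5 lower with the combination, beside 20.9% of all genes called higher and 15.1% lower. CDKN1C, a CDK inhibitor and the gene whose smallest change over the lines was the largest, gave 1.20 in Hep3B, 1.97 in MHCC97H and 1.82 in Huh7 and was not called (adjusted p = 0.0647). Those lower included SKP2, the F-box protein that degrades p27 (-1.005, SE 0.15, adjusted p = 0.00287), and CCNE1, cyclin E1 (-0.73, SE 0.20, adjusted p = 0.0196), and CDKN1B, which encodes p27, was higher (0.58). Without Hep3B the list held 2 called higher and 2 lower, and without MHCC97H 3 lower. Over all 11548 genes these fits called 1797 and 3778, against 4154 with all lines. The E2F proteins and partners then held 1 and 4 called, all lower, and the MuvB genes 0 in both. Without Huh7 none of these 3 lists had a call, where 11 of all genes were called.

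The p53 targets moved both ways, in Hep3B as in the other lines. Of 24, MDM2 among them, 7 were called higher and 6 lower with the combination, beside 36.0% of all genes called in either direction, with a median of 0.12. Those whose smallest change over the lines was the largest included BTG2, an antiproliferative gene (2.28, SE 0.35, adjusted p = 0.00301), and BBC3, which encodes the BH3-only protein PUMA (1.90, SE 0.32, adjusted p = 0.00375). In Hep3B alone the combination raised BTG2 by 2.22 and BBC3 by 1.45 over untreated. In MHCC97H it raised them by 3.13 and 2.84, and in Huh7 by 1.48 and 1.41. Both were higher in all 3 lines, and the part of p53 in these changes was not tested. Among those lower were AEN, an apoptosis-enhancing nuclease (-1.72, SE 0.32, adjusted p = 0.00502), and SESN2 (-0.83, SE 0.23, adjusted p = 0.0210). Without Hep3B 3 were called higher and 1 lower, without MHCC97H 5 higher and 2 lower, and without Huh7 none in either direction. Over all 11548 genes these fits called 1797, 3778 and 11, against 4154 with all lines. CDKN1A, which encodes p21, stood at 527 to 1061 scaled reads in MHCC97H, at 22.5 to 140 in Hep3B and at 37.6 to 73.3 in Huh7.

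Of 22 p53 regulators in the table, 4 were called higher and 4 lower with the combination, beside 20.9% of all genes called higher and 15.1% lower. PPP1R13L, which encodes iASPP, an inhibitor of p53, was higher (2.07, SE 0.32, adjusted p = 0.00301) in all 3 lines, by 1.04 in Hep3B, 2.12 in MHCC97H and 3.05 in Huh7. The kinases ATR (-0.66) and CHEK2 (-0.85) were lower. Without Hep3B 1 regulator was called higher and 0 lower, where 1797 of all 11548 genes were called. Without MHCC97H 4 were called higher and 5 lower, where 3778 of all genes were called. Without Huh7 none was called in either direction, where 11 of all genes were called.

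The genes most like each member were sought among those with a mean of at least 50 reads, by Pearson correlation of log2 levels centred on the mean of each line, over the 12 libraries. Libraries of a line share its cells of origin, and these values are descriptions. E2F1 was followed most closely by MYBL1 (0.98), TCF19 (0.98) and WDR76 (0.97), and RBL1 by KNTC1 (0.95), WHSC1 (0.94) and TOPBP1 (0.93). RBL2 was followed by EPHX2 (0.97), ZSCAN30 (0.96) and BECN1 (0.95), MDM2 by TBK1 (0.97), NOMO3 (0.96, 1 of a set of near-identical copies) and DHX57 (0.94). MDM4 was followed by SRRM2 (0.95), DENND4B (0.90) and C19orf26 (0.87), and RB1 by PRLR (0.95), C6orf106 (0.93) and PEG10 (0.93). Among the members, E2F1 and RBL1 were the most alike (0.83), and RBL2 ran opposite to both (-0.73 and -0.74). These values rest mainly on MHCC97H, where the log2 level of E2F1 had an SD of 1.23 over the 4 libraries, against 0.27 in Hep3B and 0.26 in Huh7.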

How the data were processed

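RNA was sequenced by the study from 12 libraries (polyA-selected, stranded, TruSeq) and aligned to hg38; aligner, counting and normalization are not given in the sources used here. The authors deposited 1 table of log2 values. Each value equals log2 of reads per 10000000 library reads plus 1, plus 0.001: all values came out as whole reads within 0.001, and 0 reads is written as 0.001. The scale was read from the values.

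Treatments (cell line as a term), lines (treatment as a term) and drug effects within lines (3 residual degrees of freedom) were fitted with limma 3.58.1 in R 4.3.3, with a mean-variance trend, on all genes, with Benjamini-Hochberg adjustment and a threshold of 0.05. No replicate library exists within a line and treatment. On simulated data the fit within lines called too many unchanged genes of few reads; the members had 63 reads or more in every library, and genes averaging 20 reads or more in every line were tested as an alternative. Library pairs were compared by read ratios with 95% Clopper-Pearson intervals. Median levels shifted from untreated by up to 0.109 (MHCC97H with compound #57), so smaller changes there depend on scaling.

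Named genes were the 6 members, up to 3 genes a list whose smallest change, in 1 direction in all 3 lines, was the largest, list genes called, and the 3 genes most correlated with each member. Lists held 10 E2F proteins and partners, 6 MuvB genes (5 in the table), 16 RB kinases, cyclins and inhibitors (15), 23 p53 regulators (22), 30 p53 targets (24), 35 E2F targets, 13 hepatocyte markers and 12 other markers (5); the rest were not analysed here. Some items are not reported here. Members and lists were chosen with earlier results of these data known. Gene positions and lengths are from GENCODE v44, promoters from RefSeq. Alternatives: 10 in place of 1 added before taking logs, only the better expressed 75% of genes, libraries centred on medians, voom on reads, other terms, and each line, treatment or library left out; leaving out single libraries and the 20-read minimum were added after seeing the data.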

Additional observations from a re-analysis of the deposited data

Results flagged for a closer look

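The response of E2F1 and RBL1 to AZD8055 differed between cell lines in the test of the difference itself (limma, Benjamini-Hochberg adjustment). For E2F1 the effect in MHCC97H was -2.02 from that in Hep3B and -1.72 from that in Huh7 on the log2 scale. For RBL1 the differences were -1.19 and -1.06. Each of the 4 calls was lost in 6 of the fits that left out 1 library, any MHCC97H library among them, with adjusted p from 0.0566 to 0.116 and the direction kept. MHCC97H was exposed for 24 h and the others for 48 h, and the part of exposure time in these differences cannot be told apart from the line. No group held 4 libraries of 1 line and treatment, so no library was tested as an outlier.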

How the results depend on the processing

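Of 1794 member values under the alternatives, 0 changed sign with a call on either side, 63 lost a call, 4 gained one and 108 moved otherwise (uncalled values that changed sign, or untreated libraries alone, which give no test). Of 22 called member values, none changed direction in 291 alternative values. The number of members called with the combination against untreated went from 1 to 0 with no cell line term and with only the 2 treatments compared (MDM2 -0.61, adjusted p = 0.365 and 0.0721), and for compound #57 in Huh7 from 1 to 0 with 1 shared interaction term (MDM2 -0.62, adjusted p = 0.0535). In Hep3B the same term ended the MDM2 call (-0.45, adjusted p = 0.0741) and made E2F1 called (0.53, adjusted p = 0.0325), so the count of 1 was kept by another gene. With no treatment term the E2F1 differences of Hep3B and of MHCC97H from Huh7 lost their calls (adjusted p = 0.11 and 0.0637). With 1 line left out the combination called 0 to 1 members, beside 11 to 3778 of all 11548 genes. With 1 treatment left out, Hep3B against Huh7 called 3, and the other 2 line pairs 3 to 4. With 1 library left out, AZD8055 in MHCC97H called 2 to 3 members, its differences from Hep3B and from Huh7 0 to 2 each, compound #57 in Hep3B 0 to 2 (E2F1, 0.65, adjusted p = 0.0442, joined MDM2 without the AZD8055 or the combination library of Hep3B) and in Huh7 0 to 1. The fits without 1 library rest on fewer degrees of freedom. Adding 10, the filters, centring and voom left these counts of members called as they were. Of 90 changes of members between 2 libraries of a line, 54 had an interval without 0; 0 changed sign with 10 added and 4 on centring, none of them among the 54. The cell line term pairs the treated and untreated libraries of a line, and no replicate numbers exist for any other pairing. RB1 in Hep3B had 63 to 116 reads, where only large changes can be detected.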
